A study of Mus musculus with 6 samples.

Results

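Expression of 10 transcription regulators of developing T cells was measured in sorted thymocytes that carried a Sox13 transgene. They were the E protein genes Tcf12 and Tcf3, the Id genes Id1, Id2 and Id3, and Gata3, Ikzf1, Satb1, Runx1 and Lmo4. All probe sets annotated to these genes were taken, whatever their values, which gave 10 of the 8511 genes named on the arrays and 23 probe sets (7 from the Mu11K A, 5 from the Mu11K B and 11 from the U74A array). The samples were CD4+CD8+ double-positive thymocytes, the stage at which alpha-beta T cells carry both coreceptors, sorted ex vivo from Sox13 transgenic mice and from wild-type littermates. All mice were female C57BL/6 animals 6 weeks old, thymocytes of at least 2 mice were pooled for each sort, and the promoter that drove the transgene is not given in the sources used here. Experiment 1 set 1 transgenic against 1 wild-type sample on the Mu11K A and B arrays, and experiment 2 set 1 transgenic against 1 wild-type sample on the U74A array. That makes 3 arrays per genotype and 2 pairs of samples in all. The series asked which genes change in these cells when Sox13 is present.

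E proteins are basic helix-loop-helix factors that bind as dimers to the E-box, the motif CANNTG, and drive lymphocyte genes such as those for recombination and the pre-T cell receptor. Tcf12 encodes HEB and Tcf3 encodes E2A, the main E proteins of the thymus. Id proteins carry a helix-loop-helix domain without the DNA-binding region, so an Id protein that pairs with an E protein keeps it off DNA. In thymocytes the balance of E and Id proteins sets developmental checkpoints, and Id3 is a known target of T cell receptor signaling. Gata3, Ikzf1 (Ikaros), Satb1 and Runx1 are DNA-binding factors needed at several steps of T cell development, and Lmo4 is a LIM-only adaptor that binds the cofactor Ldb1.

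The promoter sequences of Tcf12, Satb1 and Lmo4 are shown because these genes read lower in the transgenic sample in both experiments, under each scaling tried. Each of these genes had 1 probe set per experiment. Each is the RefSeq window (GRCm38.p6) from 250 bases before to 50 after an annotated gene start, written 5′ to 3′ on the gene's strand, with E-boxes in capitals. Tcf12 had 3 such windows, Satb1 5 and Lmo4 3, and the one nearest the gene's 5′ end was taken. The Tcf12 window is chr9:72111770-72112069 (minus strand), the Satb1 window is chr17:51833241-51833540 (minus strand) and the Lmo4 window is chr3:144205206-144205505 (minus strand).
Tcf12: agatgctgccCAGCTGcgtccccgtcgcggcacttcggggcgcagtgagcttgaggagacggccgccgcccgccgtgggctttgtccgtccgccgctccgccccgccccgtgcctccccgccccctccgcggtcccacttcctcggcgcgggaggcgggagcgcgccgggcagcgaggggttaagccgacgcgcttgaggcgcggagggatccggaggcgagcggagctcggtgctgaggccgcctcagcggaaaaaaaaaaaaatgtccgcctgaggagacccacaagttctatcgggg
Satb1: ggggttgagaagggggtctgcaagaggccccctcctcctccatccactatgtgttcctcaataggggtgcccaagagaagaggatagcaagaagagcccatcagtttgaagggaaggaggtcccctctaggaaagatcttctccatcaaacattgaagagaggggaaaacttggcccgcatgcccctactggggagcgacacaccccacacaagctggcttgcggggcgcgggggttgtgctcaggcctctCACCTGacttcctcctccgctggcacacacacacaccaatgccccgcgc
Lmo4: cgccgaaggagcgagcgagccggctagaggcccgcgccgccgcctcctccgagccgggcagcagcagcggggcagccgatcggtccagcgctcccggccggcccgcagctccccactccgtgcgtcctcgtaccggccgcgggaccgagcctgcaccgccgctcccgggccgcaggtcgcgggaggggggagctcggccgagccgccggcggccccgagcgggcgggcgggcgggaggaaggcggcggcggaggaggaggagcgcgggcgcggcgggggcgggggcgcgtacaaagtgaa
The Tcf12 window held 1 E-box, of the form CAGCTG, the Satb1 window held 1, which reads CACCTG here and CAGGTG on the other strand, and the Lmo4 window held 0. Of the 10 genes, 9 had a window in the table, and Id1 had none. An E-box was found in 6 of these 9, against 72.3% of all 32851 windows of the same length. The members count with 1 window per gene, while the set of all windows holds several for some genes. CAGCTG was found in 16.3% of all windows and CAGGTG, on either strand, in 20.2%. The other windows with an E-box were those of Tcf3, Id2, Gata3 and Runx1, the last with 3, and those of Id3 and Ikzf1 held 0.

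The genes lie apart in the genome (RefSeq, GRCm38.p6). Tcf12 spans chr9:71844252-72111893, Tcf3 chr10:80409541-80433976, Satb1 chr17:51736187-51833290 and Lmo4 chr3:144188530-144205255. The short Id genes lie at chr2:152736251-152737410 (Id1), chr12:25093799-25096092 (Id2) and chr4:136143822-136145392 (Id3). Gata3 lies at chr2:9857078-9887953, Ikzf1 at chr11:11684962-11772930 and Runx1 at chr16:92601466-92826074.

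Levels are given as scaled intensities, on a linear scale on which the trimmed mean of each array is 500. Values under 100 were treated as below a floor. A probe set's level was never set against another's, because probe sets differ in their response to the same amount of RNA. Of the 23 probe sets, 20 were above the floor on at least 1 array and 19 on both arrays of their pair. Id1 and Id2 accounted for the 3 probe sets below the floor on both arrays, and Id1 also for the single probe set above it on 1 array. A further Ikzf1 probe set on Mu11K A had no wild-type value and gave no ratio. RNA came from bulk sorted cells, in which fewer cells of a type and less RNA per cell cannot be told apart.

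Sox13, the transgene, read 5951 in the transgenic sample of experiment 1, with the wild type below the floor (at least 59.5-fold), and 3832 against 599.6 in experiment 2. The double-positive markers were present in both genotypes, with 0 of the 11 on the arrays below the floor everywhere. Cd8a read 15638 in transgenic and 16859 in wild-type cells on Mu11K B. On U74A, Cd4 read 5040 in transgenic and 6496 in wild-type cells. Both surface markers used for the sort were thus far above the floor in these samples. Of the 10 double-positive markers tested none passed, and 7 were lower in transgenic cells in experiment 1 and 6 of 11 in experiment 2. Rag2 and Cd1d1, which encodes a lipid-presenting molecule, were lower by 2-fold or more in experiment 1, Cd1d1 at 308 in transgenic and 669 in wild-type cells, and none was in experiment 2.

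**Figure D1:**
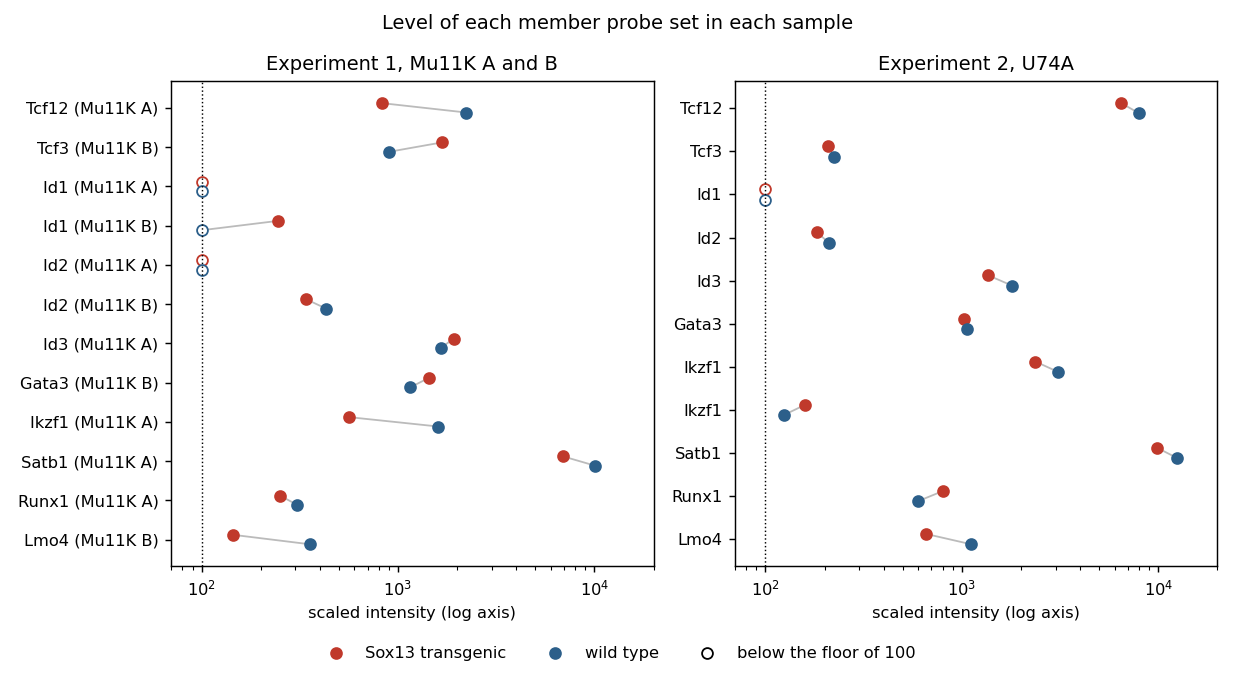
Scaled intensity (log axis) of each probe set of the 10 genes, with experiment 1 on the left and experiment 2 on the right. Each point is 1 array, red for Sox13 transgenic and blue for wild type, open symbols are values below the floor of 100 and are drawn on it, and a grey line joins the pair. Tcf12, Satb1 and Lmo4 have the transgenic point left of the wild-type point in both panels, while Tcf3, Id3, Gata3 and Runx1 change sides between panels.

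None of the 9 genes measured in both experiments passed the test across experiments (limma, Benjamini-Hochberg adjusted p under 0.05 over 3237 genes), which called 0.154% of all genes, and 2 of the 9, Tcf12 and Lmo4, had an unadjusted p under 0.05, as had 6.43% of all genes tested. All differences below are therefore values of these samples, and no gene of the 10 is said to have changed. In experiment 1, 3 of the 10 measured genes were lower in transgenic cells by 2-fold or more (Tcf12, Ikzf1 and Lmo4), where 11.7% of all measured genes were. Id1 alone was higher by 2-fold or more, where 5.25% of all genes were. In experiment 2 none of the 9 measured genes differed by 2-fold, and neither did most genes on that array, with 0.855% higher and 0.446% lower by that much. Tcf12, Id2, Ikzf1, Satb1 and Lmo4 were lower in transgenic cells in both experiments, 5 of 9 against 30.4% of all genes tested. No member was higher in both, against 23.9% of all genes. The remaining 4 had opposite signs in the 2 experiments, as did 45.7% of all genes. The median log2 ratio of the members was −0.32 in experiment 1 and −0.20 in experiment 2, beside −0.07 and −0.03 over all genes measured in each.

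Of Tcf12 and Tcf3, Tcf12 (HEB), which lies on chromosome 9, was the gene with lower signal in both transgenic samples. Tcf4, an E protein gene that is not a member, was also lower in both, as given below. In experiment 1 Tcf12 read 825 in transgenic and 2223 in wild-type cells on Mu11K A, 2.70-fold lower. A log2 ratio of that size in either direction was found at 6.31% of the probe sets of that array. On U74A it read 6472 in transgenic and 8007 in wild-type cells, 1.24-fold lower, a size reached by 28.1% of probe sets. Averaged over both experiments, its log2 ratio was −0.87 ± 0.37 (limma SE, n = 2), with an adjusted p of 0.769 and a 95% interval of −1.67 to −0.07. A mean this low or lower was found in 3.09% of all genes tested. The 2 ratios had the same sign and differed in size, and their SD was 0.79.

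Tcf3 (E2A), on chromosome 10, went the other way in experiment 1. It read 1684 in transgenic and 904 in wild-type cells on Mu11K B, 1.86-fold higher, a size shared by 24.3% of the array's probe sets. On U74A it read 207 in transgenic and 225 in wild-type cells, a log2 ratio of −0.12. Its mean over both experiments was 0.39 ± 0.37 on the log2 scale (limma SE, n = 2; adjusted p = 0.884), with an interval of −0.40 to 1.18. The U74A signals of Tcf3 lay close to the floor in both genotypes, and the 1.86-fold difference was seen in the Mu11K B pair alone.

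Among the Id genes, Id3 was above the floor at every probe set, and its 2 ratios had opposite signs. On Mu11K A it read 1922 in transgenic and 1651 in wild-type cells, 1.16-fold higher. On U74A it read 1365 in transgenic and 1809 in wild-type cells, 1.32-fold lower. Over both pairs the log2 ratio of Id3 averaged −0.09 ± 0.35 (limma SE, n = 2; adjusted p = 0.978). The interval of −0.85 to 0.66 includes differences of more than 1.5-fold in either direction. Ratios as large as these were common, at 71.9% of Mu11K A and 18.3% of U74A probe sets.

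Id2, an Id gene prominent in innate lymphoid cells, was slightly lower in both transgenic samples. It read 341 in transgenic and 433 in wild-type cells on Mu11K B, 1.27-fold lower, and 183 in transgenic and 210.0 in wild-type cells on U74A, 1.15-fold lower. A second Id2 probe set, on Mu11K A, was below the floor in both genotypes. Its log2 ratio averaged −0.27 ± 0.34 (limma SE, n = 2; adjusted p = 0.912). Of the probe sets on these arrays, 61.5% and 47.2% had ratios as large. The direction of the experiment 1 ratio changed with the scaling of the arrays, from −0.34 to 0.12.

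Id1 was detected in a single sample. On Mu11K B it read 245.5 in transgenic cells and was below the floor in wild-type cells, at least 2.46-fold higher. The second Mu11K probe set and the U74A probe set of Id1 were below the floor in both genotypes, so Id1 was not tested. A ratio as large was found at 11.7% of Mu11K B probe sets.

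**Figure D2:**
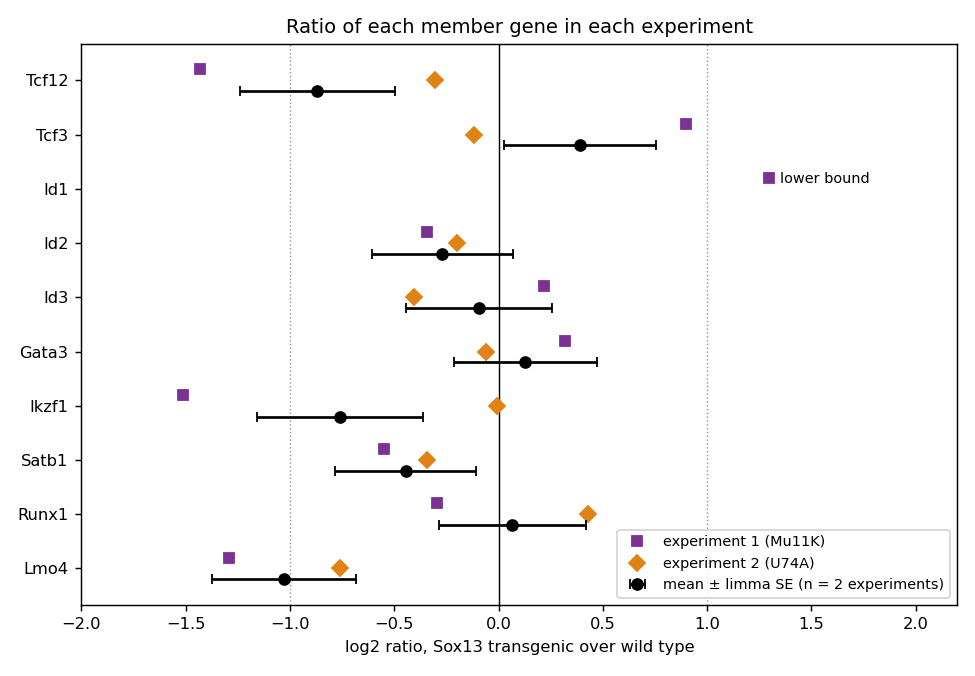
Log2 ratio of Sox13 transgenic over wild type for each gene, with purple squares for experiment 1, orange diamonds for experiment 2 and black points for the mean with its limma SE (n = 2 experiments). The dotted lines mark 2-fold. Lmo4 and Tcf12 have the lowest means, −1.03 and −0.87, and the Id1 value is a lower bound from experiment 1 alone.

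A ratio of an E protein gene to an Id gene on the same array does not depend on any scaling that multiplies a whole array by 1 factor. Measured this way, the log2 ratio of Tcf12 minus that of Id3 was −1.65 on Mu11K A and 0.10 on U74A. For Tcf12 minus Id2 it was −0.11 on U74A. Tcf3 minus Id2 gave 1.24 on Mu11K B and 0.08 on U74A, and Tcf3 minus Id3 gave 0.29 on U74A. Against Id1, whose wild-type value was below the floor, Tcf3 gave at most −0.40 on Mu11K B. In experiment 1 Tcf12 was thus low against Id3 and Tcf3 was high against Id2, and in experiment 2 all 4 differences were within 0.29 of 0. With 1 pair of samples per array these differences were not tested.

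Lmo4, on chromosome 3, had the lowest mean of the 10 genes. It read 145 in transgenic and 355 in wild-type cells on Mu11K B, 2.45-fold lower. On U74A it read 657 in transgenic and 1114 in wild-type cells, 1.70-fold lower. Ratios as large were found at 11.8% of Mu11K B and 3.60% of U74A probe sets. Its log2 ratio averaged −1.03 ± 0.35 (limma SE, n = 2), with an adjusted p of 0.648 and a 95% interval of −1.77 to −0.28. Of all genes tested, 1.64% had a mean as low. In experiment 1 the transgenic value lay near the floor, and the log2 ratio ranged from −1.29 to −0.83 over 4 scalings, so that it was past 2-fold under the trimmed mean alone. In experiment 2 the range was −0.76 to −0.71.

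Ikzf1 encodes Ikaros, a zinc finger factor that can repress genes through the NuRD complex. It read 561 in transgenic and 1600.0 in wild-type cells on Mu11K A, 2.85-fold lower, a size found at 5.02% of that array's probe sets. The 2 U74A probe sets disagreed. A probe set well above the floor read 2369 in transgenic and 3090 in wild-type cells (log2 ratio −0.38), while the other, near the floor, read 160.0 in transgenic and 124 in wild-type cells (log2 ratio 0.37), and 20.0% and 21.7% of U74A probe sets had ratios as large. Their average for the gene was −0.01, so Ikzf1 counts as lower in both experiments by a value that turned positive under median scaling (0.05) and loess. For Ikzf1 as a gene, the log2 ratio averaged −0.76 ± 0.40 (limma SE, n = 2; adjusted p = 0.796), with an interval of −1.62 to 0.10.

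Satb1, a chromatin organizer that binds AT-rich DNA and is abundant in thymocytes, was far above the floor on both array designs. It read 6906 in transgenic and 10102 in wild-type cells on Mu11K A, 1.46-fold lower. On U74A it read 9844 in transgenic and 12489 in wild-type cells, 1.27-fold lower. Both differences pointed the same way and were modest, with 38.4% and 24.0% of the probe sets of these arrays showing ratios as large. Across experiments the log2 ratio of Satb1 averaged −0.45 ± 0.34 (limma SE, n = 2; adjusted p = 0.872), and the interval ran from −1.18 to 0.29.

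Gata3, required for early T cell commitment and for CD4 lineage cells, was 1.25-fold higher in experiment 1 and 1.04-fold lower in experiment 2. It read 1440.5 in transgenic and 1155 in wild-type cells on Mu11K B and 1022 in transgenic and 1067 in wild-type cells on U74A. Its log2 ratio averaged 0.13 ± 0.34 (limma SE, n = 2; adjusted p = 0.975), with an interval of −0.61 to 0.87. Of the array's probe sets, 63.7% on Mu11K B and 81.6% on U74A had a ratio at least as far from 0.

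Runx1, a Runt domain factor that silences Cd4 before the double-positive stage, had ratios of opposite sign. It read 251 in transgenic and 308 in wild-type cells on Mu11K A, and 806 in transgenic and 599 in wild-type cells on U74A, 1.34-fold higher. Over both pairs its log2 ratio averaged 0.07 ± 0.35 (limma SE, n = 2; adjusted p = 0.984), with an interval of −0.69 to 0.83. Ratios as large were found at 62.6% of Mu11K A and 16.5% of U74A probe sets. In experiment 1 the Runx1 ratio lay between −0.30 and 0.04 depending on the scaling.

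**Figure D3:**
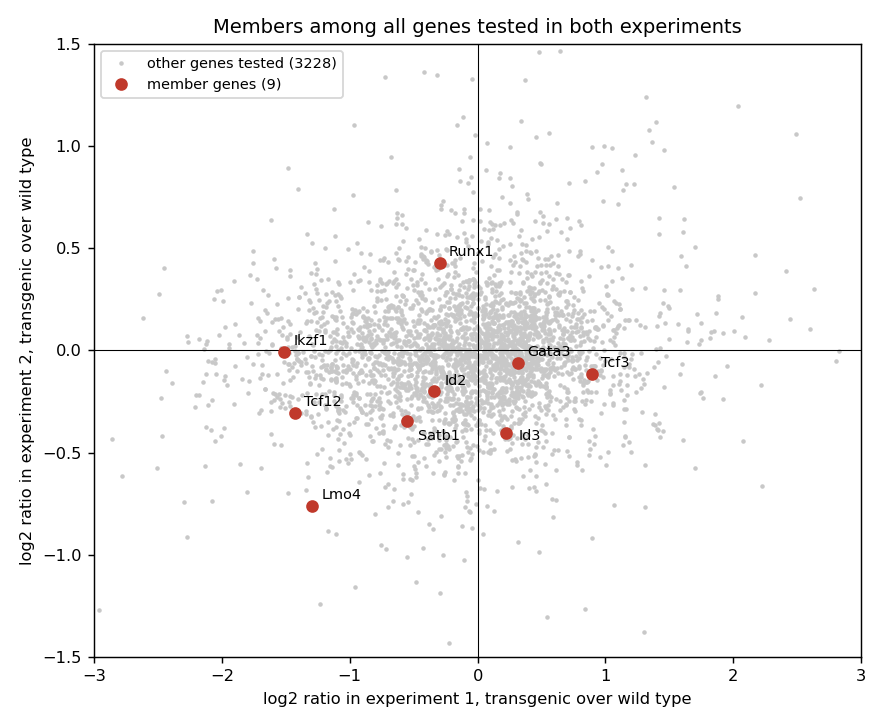
Log2 ratio of Sox13 transgenic over wild type in experiment 1 (horizontal) and experiment 2 (vertical) for the 9 members tested (red) and the 3228 other genes tested (grey), with 17 grey genes outside the axes. Ratios spread more in experiment 1 (SD 0.78) than in experiment 2 (SD 0.33), and the members lie inside the cloud, with Lmo4 nearest its lower left edge.

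The scale of the arrays bears on these directions. Under the trimmed mean the median log2 ratio of probe sets above the floor was −0.07 for Mu11K A, −0.15 for Mu11K B and −0.03 for U74A, and 45.0%, 40.8% and 45.9% of them were higher in transgenic cells. Under median scaling the medians were 0.24, 0.28 and 0.03, with 63.5%, 63.6% and 54.2% higher. Quantile normalization gave medians of 0.04, 0.03 and −0.01, with 53.1%, 51.5% and 47.7% higher. Tcf12, Satb1 and Lmo4 were lower in both experiments under the trimmed mean, median, quantile and loess scalings. The experiment 1 ratio of Tcf12 ranged from −1.47 to −1.10 and that of Satb1 from −0.72 to −0.22. Relative to the median of its array under the trimmed mean, the log2 ratio was −1.36 and −0.28 for Tcf12, −0.48 and −0.32 for Satb1, and −1.15 and −0.74 for Lmo4 in experiments 1 and 2.

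**Figure D4:**
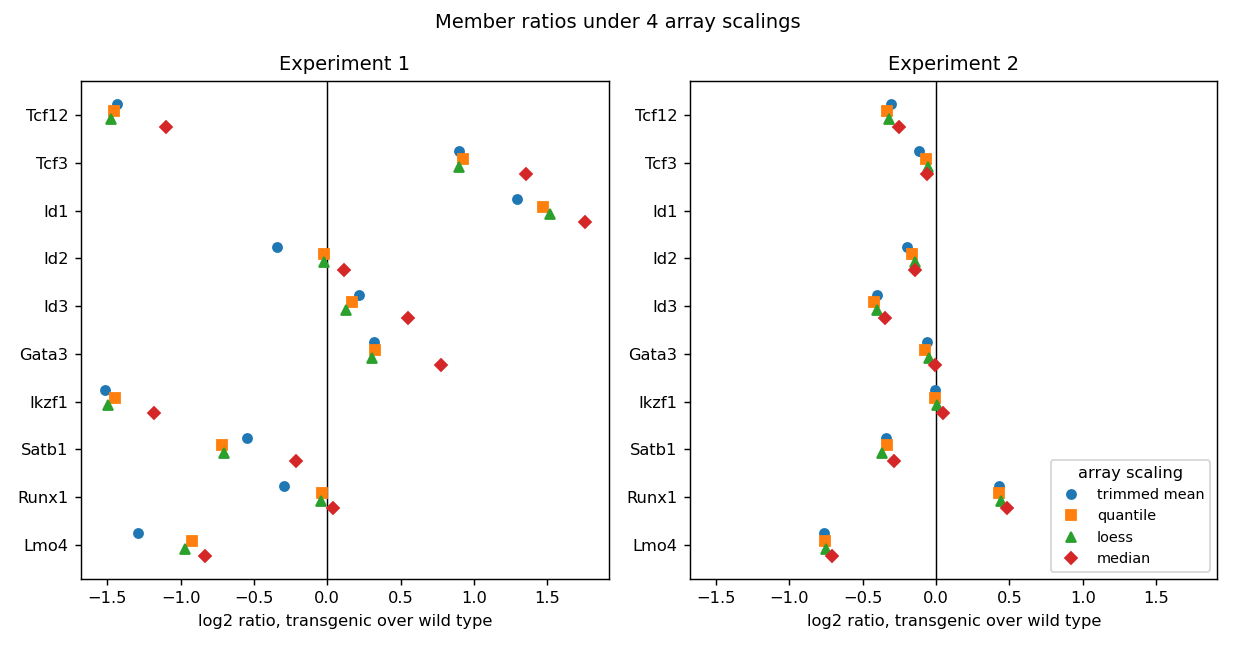
Log2 ratio of Sox13 transgenic over wild type for each gene under 4 array scalings (trimmed mean, quantile, loess and median), in experiment 1 on the left and experiment 2 on the right. Median scaling shifts every experiment 1 ratio to the right, and the signs of Id2 and Runx1 in experiment 1 and of Ikzf1 in experiment 2 differ between scalings.

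The partners of the E and Id proteins were taken as a list of 25 helix-loop-helix, Myc network and LIM cofactor genes, of which 11 were tested. None passed. In both experiments 5 were lower and 1 was higher in transgenic cells, beside 30.4% lower and 23.9% higher of all genes tested. The medians over the 14 genes measured in each experiment were −0.08 and −0.05. Tcf4, the third E protein gene of mammals, had the lowest mean of the list. It was below the floor in transgenic cells and read 252 in wild-type cells on Mu11K A, at least 2.52-fold lower, and it read 352 in transgenic and 515 in wild-type cells on U74A. Its fitted mean log2 ratio was −0.94 ± 0.35 (limma SE, n = 2; adjusted p = 0.723). Ldb1, the cofactor that binds Lmo4, read 3137 in transgenic and 2137 in wild-type cells on Mu11K A and 1545 in transgenic and 1858 in wild-type cells on U74A. The fourth Id gene, Id4, and Tal1, an E protein partner, were below the floor on every array.

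Of 17 relatives and cofactors of Ikaros, Runx, Gata and Satb factors, 9 were tested and none passed. In both experiments 6 were lower and 1 was higher, beside 30.4% lower and 23.9% higher of all genes tested. The medians were −0.41 over the 9 genes measured in experiment 1 and −0.01 over the 10 measured in experiment 2. Sin3b, a corepressor subunit, had log2 ratios of −0.66 and −0.74, the lowest mean of the list, and its experiment 1 value is a bound, with the transgenic sample below the floor. Zfpm1, which encodes the Gata cofactor Fog1, was the single gene higher in both. It read 930.4 and 951 in transgenic and 229 and 488 in wild-type cells at the 2 Mu11K A probe sets, and 1057 in transgenic and 909 in wild-type cells on U74A (adjusted p = 0.769).

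Another 32 thymocyte transcription factors gave 15 tested genes, none past the test. In both experiments 4 were higher and 4 lower, beside 23.9% higher and 30.4% lower of all genes tested. The medians were −0.29 over the 16 genes measured in experiment 1 and 0.00 over the 19 measured in experiment 2. Irf1, an interferon response factor, had log2 ratios of 1.01 and 0.27. At the lower end, Nfatc3, a calcineurin-dependent factor, had −1.69 and −0.12, and Stat5b, which acts downstream of cytokine receptors, had −0.51 and −0.63. Elf1, an Ets family factor, had −1.67 in experiment 1 and 0.20 in experiment 2.

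Genes that E proteins are known to regulate in lymphocytes were split between higher and lower. Of 21 listed, 14 were tested and none passed. In both experiments 5 were higher and 5 lower, beside 23.9% higher and 30.4% lower of all genes tested. The medians were 0.08 over the 15 genes measured in experiment 1 and 0.04 over the 17 measured in experiment 2. Ptcra, the pre-T cell receptor alpha chain gene, read 953 in transgenic and 312 in wild-type cells on Mu11K A and 2247 in transgenic and 1503 in wild-type cells on U74A (adjusted p = 0.648). Notch1, the receptor for T lineage signals, read 3957 in transgenic and 716 in wild-type cells on Mu11K A, and 3747 in transgenic and 543 in wild-type cells on Mu11K B. Its 2 U74A probe sets read 343 and 2299 in transgenic and 226 and 2302 in wild-type cells (log2 ratios 0.60 and −0.002). Notch1 thus counts as higher in experiment 2 through the first of them alone. Socs3, a cytokine signal inhibitor, had log2 ratios of 3.29 and 0.79 (adjusted p = 0.267).

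Of the recombinase genes on that list, Rag2 read 460 in transgenic and 1871 in wild-type cells on Mu11K A, 4.07-fold lower, and 2119 in transgenic and 2008 in wild-type cells on U74A. Rag1 had a log2 ratio of −0.56 in experiment 1. On U74A its probe sets disagreed, since the probe set far above the floor read 11709 in transgenic and 12724 in wild-type cells (log2 ratio −0.12), and the other read 166 in transgenic cells with the wild type below the floor (at least 0.73). The gene's average of 0.30 in experiment 2 is thus positive through the probe set near the floor alone. Dntt, the terminal transferase gene, and Cxcr4, the chemokine receptor gene, were within 0.37 of 0 on the log2 scale in both experiments. Gfi1, a zinc finger repressor, was lower in both, with log2 ratios of −0.35 and −0.60.

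Genes of the T cell receptor response, which include the early growth response factors upstream of Id3, gave 8 tested genes with none past the test, and medians of 0.51 and −0.10. Egr1 read 1057 in transgenic and 1143 in wild-type cells on Mu11K A and 674 in transgenic and 903 in wild-type cells on U74A. Egr2 had log2 ratios of −0.30 and −0.27. Nr4a1 read 2214 in transgenic and 749 in wild-type cells on Mu11K B, 2.96-fold higher, and 315 in transgenic and 288 in wild-type cells on U74A.

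Markers of other cell types also had different levels in the 2 genotypes of these samples. Of the double-negative progenitor markers, all 4 tested were higher in transgenic cells in both experiments and 1 passed, Dtx1, which rose by a mean log2 ratio of 3.86 (limma adjusted p = 0.00428), with the wild type of experiment 1 below the floor. The other 3 were Notch1, Notch3 and Ptcra. Notch1 counts as higher in experiment 2 through 1 of its 2 U74A probe sets (log2 ratio 0.60), and the other had −0.002. Markers of this list measured in 1 experiment gave log2 ratios of −0.21 for Kit and −0.74 for Cd34 in experiment 1 and of 0.04 for Il7r and −0.32 for Hes1 in experiment 2, and Cd44 and Il2ra were below the floor on every array. Mature single-positive markers were higher in both for 3 of 4 (H2-K1, H2-D1 and Socs3), none past the test, with S1pr1 and Zbtb7b below the floor. Cd52 had log2 ratios of 0.44 and −0.12. Klf2 and Ccr7, measured in experiment 1 alone, had 0.67 and at least 0.92. Of 5 gamma-delta markers tested, 4 were higher in both, the one that passed is the transgene Sox13, and the fifth is Id3. Maf, measured in experiment 1 alone, had a log2 ratio of −1.20. Of 6 B cell markers tested, 4 were higher in both (Ighm, H2-Aa, H2-Ab1 and Cd74) and none passed. Cd79b had log2 ratios of 0.58 and −0.23, and Ms4a1 had −0.14 and at least 0.83. Measured in experiment 2 alone, Cd79a had 0.82, Pax5 −0.14 and Blnk −0.02, and Cd22 and Ebf1 were below the floor everywhere. Intensities were also summed over all probe sets of a list on an array, below the floor or not, with negative values counted as 0. The B cell sums on Mu11K A, Mu11K B and U74A were 8672, 22923 and 18877 in transgenic cells, against 5397, 13671 and 16567 in wild-type cells. In the same array order, erythroid markers summed to 328, 3063 and 2347 in transgenic cells, against 460.4, 689 and 885 in wild-type cells. Of these, Hba-a1 and Hbb-b2, which encode globin chains, rose past the test (limma adjusted p = 0.0154 and 0.0399), although the other Hba-a1 probe set on Mu11K B read 299 in transgenic and 305 in wild-type cells. Hbb-b2 was below the floor in wild-type cells on U74A, so its experiment 2 ratio is a bound. Car2 and Gata1 were lower in both experiments without passing, and Alas2 and Epor were below the floor. Both Car2 and Gata1 were below the floor in transgenic cells on every array, so their ratios are bounds. On U74A wild-type Gata1 read 104.6 at 1 probe set, near the floor, and was below it at the other. The calls of Dtx1, Sox13 and both globin genes were lost with a floor of 50, without a filter on low values, without the Mu11K A arrays, which carry Sox13 and Dtx1 in experiment 1, and in the unpaired fit, each of which called 0 genes.

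Myeloid and dendritic markers summed to 2659, 869 and 2115 in transgenic cells, against 2662, 999 and 1511 in wild-type cells, again for Mu11K A, Mu11K B and U74A. None of the 5 tested passed. Ctss was higher in both experiments, with log2 ratios of 1.32 and 1.24, Cd14 was lower in both, and 3 had opposite signs. In experiment 1, 2 of the 6 measured were higher, with a median of −0.12. In experiment 2, 6 of 9 were higher, with a median of 0.59. Of the 13 on the arrays, 3 (Adgre1, Itgam and S100a9) were below the floor everywhere. Natural killer and innate lymphoid markers summed to 173, 8604 and 1584 in transgenic cells, against 191, 1535 and 904 in wild-type cells, and Gzma was the single one of them above the floor on Mu11K B. Of the 10 on the arrays, 7 were below the floor everywhere, namely Klrb1c, Klrd1, Klrk1, Ncr1, Prf1, Gzmb and Zbtb16. Stroma and epithelium markers summed to 115, 1233 and 1508 in transgenic cells, against 252, 2462 and 1918 in wild-type cells, with 6 of 12 below the floor everywhere, namely Epcam, Col3a1, Krt5, Krt8, Krt14 and Krt18. Most of the stroma sums on Mu11K B came from Vim, at 927 in transgenic and 2274 in wild-type cells. On U74A a single Col1a2 probe set gave 751 in transgenic and 1113 in wild-type cells, and the other was below the floor in both. The part of any of these cell types in the values of the 10 regulators was not tested.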

How the data were processed

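RNA of sorted double-positive thymocytes was hybridised to 6 Affymetrix arrays, 3 per genotype. The authors deposited a linear intensity for each probe set, made with Microarray Analysis Software, per the series text. Which version made which array's values is not given in the sources used here. AFFX controls and 21 Mu11K A probe sets with no wild-type value were left out. Each array was scaled to a mean of 500 after trimming 2% at each end, a floor of 100 was applied, and values were put on the log2 scale. Where a sample lay at the floor, the fold is a bound ("at least"). Genes were named through the platform annotation from probe sets with 1 symbol, 5530 of 6508 on Mu11K A, 2001 of 6540 on Mu11K B and 10833 of 12422 on U74A. A gene's ratio in an experiment is the mean over its probe sets that exceeded the floor in either genotype.

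The ratios of both experiments were tested against 0 with limma (version 3.58.1, R 4.3.3), two-sided, with Benjamini-Hochberg adjustment over 3237 genes. The prior, which pools the variance of all genes, counted for 12.1 degrees of freedom and outweighs a gene's own spread between 2 pairs. Replicates are 2 pairs of pooled samples, so p-values do not measure the spread between single mice, and the number of arrays limits the precision. Within an array pair no test was made. The fit was tested on simulated data. The 10 members and the 14 other gene lists were chosen with earlier results of these data known. All members were named. From each other list, the genes named were among the 3 highest and 3 lowest means, except that any double-positive marker or gene regulated by E proteins could be named. List members below the floor on every array were named outside this rule, after their values were seen. So were Kit, Cd34, Hes1, Maf, Pax5, Blnk, Ccr7, Klf2, Vim and Col1a2. Alternatives changed the floor, the filter, the summary of probe sets, the scaling, the pairing and the array designs used.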

Additional observations from a re-analysis of the deposited data

Results flagged for a closer look

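For 4 of the 9 regulators measured in both experiments, the transgenic sample lay above the wild type in 1 experiment and below it in the other. The log2 ratio of experiment 1 minus that of experiment 2 was 1.01 for Tcf3, 0.62 for Id3, 0.38 for Gata3 and −0.72 for Runx1. Each experiment held 1 pair of samples, so these differences between experiments were not tested, and the array design, the sort and the mice differed together between the experiments. Opposite signs were found for 45.7% of all genes tested.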

How the results depend on the processing

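No member passed the limma test under any of the 11 alternatives run. Over 9 genes, 90 tested values were computed, 89 kept their direction and none was called, with adjusted p from 0.498 to 1. The exception was Id3, whose mean log2 ratio was 0.10 under median scaling (adjusted p = 0.972). Many of these values could not change direction. The unpaired fit gives the same mean by construction, and leaving out an array design removed a member or left its mean as it was. Only the scalings moved the means of Tcf12, Tcf3, Id3, Gata3, Satb1 and Runx1. The adjusted p ranged from 0.498 to 0.999 for Tcf12 and from 0.506 to 0.999 for Lmo4. The count of all genes past the threshold, 5, was less stable. A floor of 50 gave 0, no filter on low values 0, probe sets exceeding the floor in both genotypes 2, the brightest probe set 1, and it was 15 with quantile normalization, 26 with median scaling, 0 without the Mu11K A arrays, 3 without the Mu11K B arrays and 0 in an unpaired fit without the replicate block. The 4 members past 2-fold in experiment 1 became 2 with a floor of 200, 2 without Mu11K A and 2 without Mu11K B. Under median scaling the count stayed at 4, with Tcf3 (log2 ratio 1.36) in place of Lmo4 (−0.83). The 5 members lower in both experiments became 3 with median scaling, 2 without Mu11K A and 3 without Mu11K B. Leaving out an array design leaves fewer genes measured. With a floor of 200 the experiment 1 log2 ratios of Id1 (0.30) and Lmo4 (−0.83) were within 2-fold. Under median scaling Id2 was positive in experiment 1 (0.12) and Ikzf1 in experiment 2 (0.05). For the other shifts in the count of all genes the cause was not tested. Signals near the floor limit Id1, Id2, Tcf3 on U74A and Lmo4 on Mu11K B.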
